A study of Caenorhabditis elegans with 2 samples.

Results

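The genes of small nucleolar RNAs (snoRNAs) were examined in a chromatin immunoprecipitation and sequencing (ChIP-seq) experiment on the Caenorhabditis elegans protein F23B12.7. All 346 nuclear genes that Ensembl annotates as snoRNA were taken, of 46890 annotated nuclear genes. The animals were whole young adult hermaphrodites of strain OP429, genotype unc-119(tm4063) III; wgIs429, whose age is given as unknown. The insertion carries F23B12.7 with a GFP-FLAG tag at its C-terminal end, and chromatin sheared by sonication was recovered with an antibody against GFP. In the antibody field the labels name F23B12.7 itself. The labels do not give the promoter that drives the fusion or say whether the endogenous gene is intact. There were 2 biological replicates of 1 group. Read totals are not in the lists, and sequencing depth is unknown. No conditions were compared, and the counts below carry intervals in place of tests.

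The snoRNAs guide enzymes to nucleotides of ribosomal and spliceosomal RNAs. Box C/D snoRNAs direct 2′-O-methylation through fibrillarin, and box H/ACA snoRNAs direct pseudouridylation through dyskerin. Many lie in introns of protein-coding host genes and can be cut out of the spliced intron, while others are transcribed from promoters of their own. The tRNA genes, which RNA polymerase III reads, have an internal promoter made of an A box and a B box, which the factor TFIIIC binds.

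The deposited peaks used were a list thresholded by reproducibility between replicates (irreproducible discovery rate, IDR). A gene was counted as having a peak when a summit of this list lay within 250 bp of it. Of the snoRNA genes, 87 had a peak (25.1%, 95% exact interval 20.7 to 30.1%), where the background over all annotated nuclear genes was 4.93%. The summits stood just before the 5′ end of the snoRNA gene in most cases, and a subset had the letters of an A box and a B box there. The sequences of 6 genes with a peak are given because they carry both sets of letters. Their summits were upstream of the 5′ end except in T24H7.6, where it was 68 bp past that end. They are followed by 1 gene in an intron of the ribosomal protein gene rpl-15 that had neither the letters nor a peak. Each run is 5′ to 3′ on the strand of the snoRNA gene and holds the 100 bases before the gene and its first 20. The letters come from the RefSeq sequence of assembly WBcel235 (ce11). Capitals mark the A box letters TGGNNNNNTGG and the B box letters GTTCNANNC, where N is any base.
F12F6.11: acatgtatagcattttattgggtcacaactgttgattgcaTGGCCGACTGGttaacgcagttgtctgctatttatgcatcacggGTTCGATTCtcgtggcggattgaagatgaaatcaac
T24H7.6: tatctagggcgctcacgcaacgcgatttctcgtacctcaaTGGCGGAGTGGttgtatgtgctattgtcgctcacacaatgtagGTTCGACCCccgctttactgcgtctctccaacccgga
Y38F2AR.14: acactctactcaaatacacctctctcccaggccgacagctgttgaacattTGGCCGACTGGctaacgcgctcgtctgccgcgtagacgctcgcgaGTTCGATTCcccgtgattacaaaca
T03F7.8: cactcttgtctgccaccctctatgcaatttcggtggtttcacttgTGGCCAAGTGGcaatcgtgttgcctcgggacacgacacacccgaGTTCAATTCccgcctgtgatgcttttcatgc
C04G6.12: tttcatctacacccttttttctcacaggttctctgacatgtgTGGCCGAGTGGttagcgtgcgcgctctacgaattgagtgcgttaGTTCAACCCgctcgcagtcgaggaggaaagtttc
Y75B12B.12: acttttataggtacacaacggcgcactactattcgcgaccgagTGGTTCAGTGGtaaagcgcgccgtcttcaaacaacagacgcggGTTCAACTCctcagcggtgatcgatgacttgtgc
K11H12.12: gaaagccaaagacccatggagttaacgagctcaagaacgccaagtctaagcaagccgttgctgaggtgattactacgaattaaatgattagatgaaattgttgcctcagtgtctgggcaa

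The first of these, F12F6.11, is shown from chrIV:11549845-11549964 on the minus strand, between coding genes. T24H7.6 (chrII:6248617-6248736, plus strand) and Y38F2AR.14 (chrIV:2408616-2408735, minus strand) lie in same-strand introns. T03F7.8 (chrV:11314158-11314277, plus strand) and C04G6.12 (chrII:5105212-5105331, minus strand) lie in introns of genes on the other strand. Y75B12B.12 (chrV:15191074-15191193, minus strand) lies between coding genes, and K11H12.12 is shown from chrIV:654011-654130 on the minus strand. In the 6 genes with a peak the A box letters began 50 to 60 bases and the B box letters 5 to 17 bases before the annotated 5′ end.

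The members were separated by their place relative to protein-coding genes. In a same-strand intron of a coding gene, 32 of 150 snoRNA genes had a peak (21.3%, 15.1 to 28.8%). In an intron of a gene on the opposite strand, the count was 11 of 28 (39.3%, 21.5 to 59.4%). Between coding genes it was 39 of 124 (31.5%, 23.4 to 40.4%). The other 44 overlapped a coding gene in another way, and 5 of them had a peak (11.4%, 3.79 to 24.6%). The intervals of the first 3 classes overlap. As a reference, a summit was within 250 bp of 0.534% of 100 bp windows in coding introns and of 1.44% of windows between coding genes. The 87 genes were at 86 distinct peaks, of 1684 nuclear IDR peaks, since the neighbours C51F7.3 and C51F7.4 shared one.

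Other small RNA classes gave a range of shares by the same rule. A peak was near 294 of 612 tRNA genes (48%), 25 of 129 snRNA genes (19.4%) and 7 of 261 miRNA genes (2.68%). Among piRNA genes the count was 29 of 15363 (0.189%). The share of snoRNA genes was thus above those of miRNA and piRNA genes and below that of tRNA genes, with intervals that do not overlap. The snRNA interval, 13.0 to 27.3%, overlaps that of snoRNA genes.

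Chromosome X had the lowest share, with a peak at 2 of its 33 snoRNA genes (6.06%, 0.743 to 20.2%). They were C53B7.8, with a signal of 55.3, and D2021.6, with 59.2. On the 5 autosomes the shares ran from 18.5% (10 of 54, chromosome III) to 33.9% (20 of 59, chromosome IV). The X interval does not overlap those of chromosomes IV and V (18 of 55 on V, 32.7%) and overlaps those of the other autosomes.

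Short snoRNA genes had peaks more often than long ones. Below 100 bases, 45 of 93 genes had a peak (48.4%, 37.9 to 59.0%), against 42 of 253 genes of 100 bases or longer (16.6%, 12.2 to 21.8%). The shares were 19 of 30 against 20 of 94 between coding genes (63.3 and 21.3%), and 8 of 11 against 3 of 17 in opposite-strand introns (72.7 and 17.6%). In same-strand introns they were 15 of 41 against 17 of 109 (36.6 and 15.6%). The short genes were higher in every location class, although the intervals are apart only between genes. The median length was 95 bases with a peak and 133 without. C/D snoRNAs are generally shorter than H/ACA snoRNAs, but the annotation used does not give the class. Terminal letters resolved few members: TGATGA near the 5′ end with CTGA near the 3′ end was found in 14 genes, 7 of them with a peak (50%, 23 to 77.0%). ACA placed 3 bases before the 3′ end was found in 58 genes, 17 of them with a peak (29.3%, 18.1 to 42.7%).

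**Figure D1:**
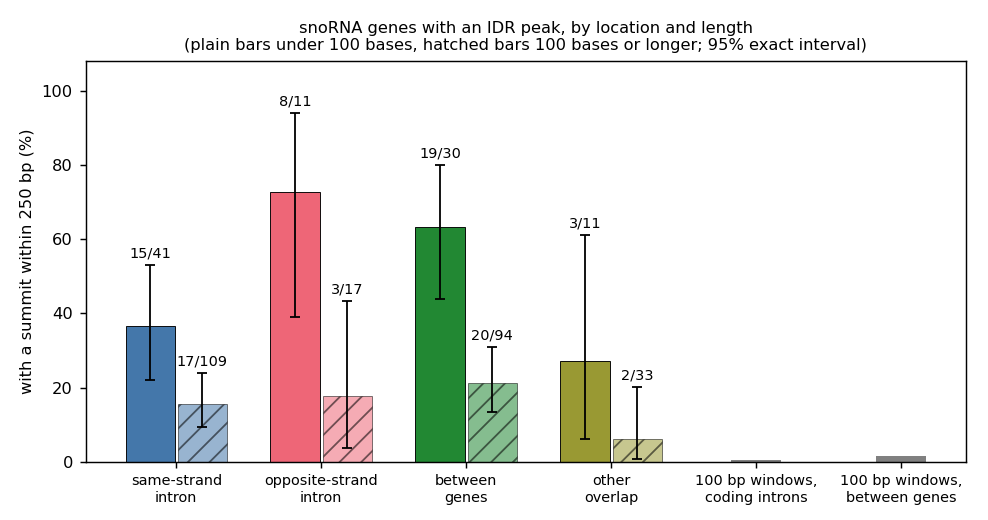
Percent of snoRNA genes with an IDR summit within 250 bp (y axis), by location and length, with 95% exact intervals and the counts above the bars; grey bars are 100 bp genome windows. Plain bars (under 100 bases) stand above hatched bars (100 bases or longer) in each of the 4 classes, and the grey bars are at 0.534 and 1.44%.

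Summits clustered on the upstream side of the genes. Measured on the strand of the snoRNA gene, the nearest summit had a median position of −25 bp from the 5′ end (quartiles −47.5 and 13.5, n = 87), where negative is upstream. In 60 genes the summit was upstream, in 22 inside the gene and in 5 past its 3′ end. It lay within 100 bp upstream in 57 genes, and within 100 bp on either side of the 5′ end in 79. The medians were −13 bp in same-strand introns, −38 bp in opposite-strand introns and −27 bp between genes. In opposite-strand introns 8 of the 11 summits were upstream of the snoRNA, which is the downstream side in the direction of the host. At tRNA genes with a peak, whose A and B boxes are inside the gene, the median summit was 20 bp past the first base (n = 294).

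**Figure D2:**
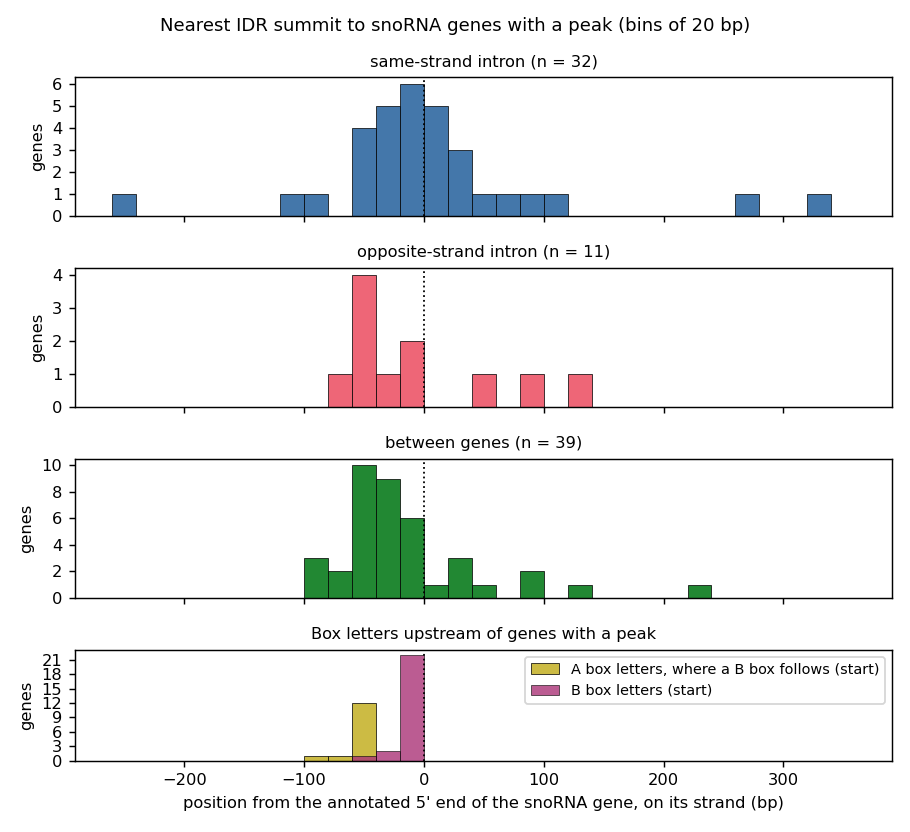
Number of snoRNA genes (y axis, bins of 20 bp) by the position of the nearest IDR summit from the annotated 5′ end (x axis, bp, dotted line at 0), in 3 location classes, and the starts of A and B box letters upstream of members with a peak. The medians are −13, −38 and −27 bp, left of the 5′ end in each class, and 16 of the 32 summits in same-strand introns lie within 100 bp upstream.

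The signal value, which the authors give each peak on their own scale, was high at the snoRNA genes. Their median was 77.2 (quartiles 56.3 and 99.8, range 38.4 to 148), against 52.2 over all nuclear IDR peaks. Of the 87 members with a peak, 70 were above that nuclear median (80.5%, 70.6 to 88.2%). Members supplied 20 of the 100 nuclear peaks of highest signal and 56 of the highest 500, while they were at 86 of all 1684 (5.11%). The medians were 76.7 in same-strand introns, 80.5 in opposite-strand introns and 75.9 between genes, with ranges that overlap almost wholly. The 5 genes with another overlap had a median of 103 and a range of 87.6 to 114, inside the ranges of those 3 classes.

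Among same-strand introns the highest signal was that of F54E7.10 in rps-12, which encodes a protein of the small ribosomal subunit. Its signal was 148 in the IDR list, 113 in replicate 1 and 38.2 in replicate 2, each on the scale of its own list. That summit lay 248 bp upstream of the snoRNA and is the peak of the rps-12 start, so it differs from most others in position. F11A10.9 in rbm-34, which encodes a protein with an RNA recognition motif, had 128 in the IDR list, 63.3 in replicate 1 and 61.3 in replicate 2, with the summit 32 bp upstream. T24H7.6, in a gene that RefSeq names as hypoxia up-regulated protein 1, had 118, 68.8 and 50.5 in the same order, with the summit 68 bp past its 5′ end. In rank, F11A10.9 was at place 121 of the 30000 regions of replicate 1 and place 40 of replicate 2, and T24H7.6 at places 94 and 69. Thus both stood near the top of each list.

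The next 5 same-strand members also had their summit close to the snoRNA. C51F7.3 in frm-7, which encodes a protein with a FERM domain, had a signal of 114 in the IDR list, 65.9 in replicate 1 and 47.8 in replicate 2. Y38F2AR.14, in a 5-oxoprolinase gene, had 109, 66.3 and 41.3 in the same order. C08D8.3, in a gene of an UNC93-like protein, had 106, 69.4 and 36.8. All 3 were within the first 250 places of each replicate. T08B2.13 in fars-1, the gene of a phenylalanine tRNA ligase, had 105, 68.8 and 39.0. C27H6.5 in unc-41, a gene of synaptic vesicle recycling, had 105, 65.9 and 39.6. Their summits were 81, 9, 33, 44 and 37 bp upstream of the 5′ end, in the order named, and none of these 5 hosts had a peak at its own start.

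In opposite-strand introns the highest signal was at ZK484.9 in haf-9, an ABC transporter gene, with 128 in the IDR list, 87.0 in replicate 1 and 41.5 in replicate 2. T03F7.8 in cutl-18 (cuticlin-like) had 99.3, 62.4 and 34.9 in the same order. C04G6.12 in mpk-2, a mitogen-activated protein kinase gene, had 92.5, 56.2 and 39.0. These 3 all had B box letters upstream. B0334.12 in the potassium channel gene twk-5 had 91.6, 47.0 and 41.4. The IDR signals of the next 4 were 88.6 (Y55F3BR.9 in Y55F3BR.2), 80.5 (C07A9.14 in ncx-7, a sodium/calcium exchanger gene), 77.3 (T04A8.17 in ppat-1, an amidophosphoribosyltransferase gene) and 69.7 (K02C4.7 in ltd-1). The summit was upstream in 6 of these 8 and past the 5′ end in B0334.12, at 96 bp, and in Y55F3BR.9, at 48 bp. Of the 27 genes with a snoRNA in an opposite-strand intron, 3 had a summit within 500 bp of their start (11.1%, 2.35 to 29.2%). The interval holds the background of that rule over all protein-coding genes, 6.72%.

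Between coding genes T06C12.16 had the highest signal, 146 in the IDR list, 84.1 in replicate 1 and 59.9 in replicate 2, with its summit 51 bp upstream. F12F6.11 followed with 128, 65.6 and 63.2. The remaining 6 of the highest 8 were Y23H5B.10, Y53F4B.48, F32E10.10, T19B4.8, ZK265.10 and F59C6.15, with IDR signals from 127 down to 116. Their summits lay upstream by 21 to 99 bp, except that of Y23H5B.10, which was 31 bp inside the gene. All 8 were within the first 111 places of replicate 1 and the first 250 of replicate 2.

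**Figure D3:**
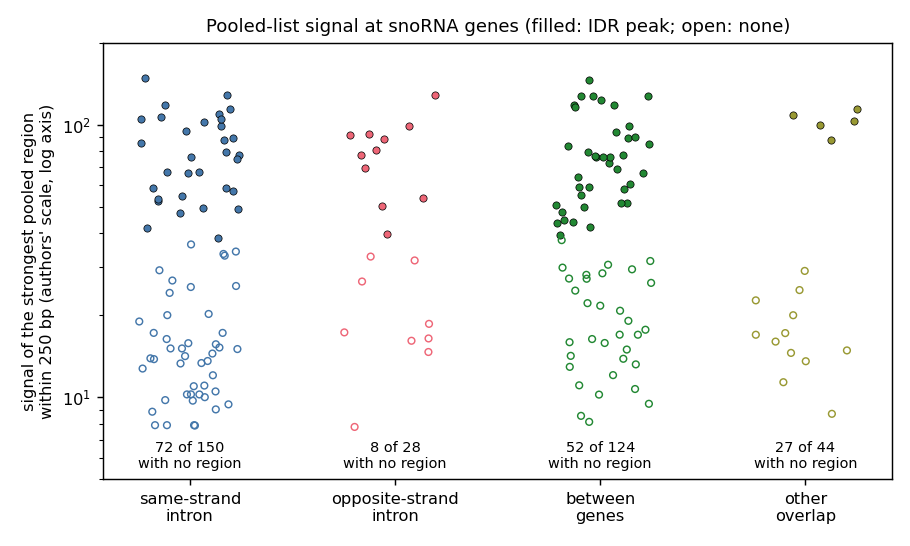
Signal of the strongest region of the pooled list within 250 bp of each snoRNA gene (y axis, authors' scale, log axis), by location class, with points spread sideways at random; filled points have an IDR peak and open points do not. Filled points run from 38.4 to 148 and open points from 7.79 to 37.7, and the numbers at the foot count genes with no pooled region.

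The threshold divided a continuous range. Just inside it were C24A1.8 in elf-1 with 38.4, T21B4.20 with 39.3 and ZK185.9 with 39.8. Just outside, by the signal of the list made from pooled reads, were W06H8.17 with 37.7, Y65B4BR.12 with 36.4 and Y71F9AM.7 with 34.3. Of the 259 genes without an IDR peak, 100 had a pooled region within 250 bp (38.6%, 32.6 to 44.8%), where 16.7% of 100 bp genome windows had one. These regions had a median signal of 15.8, against 12.1 over all nuclear pooled regions.

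The replicate lists were also searched at the members. A region of the list of 30000 was within 250 bp of 142 members in both replicates, of 48 in replicate 1 alone, of 41 in replicate 2 alone and of 115 in neither. Such counts were not made over all genes or genome windows, so they are not read as particular to snoRNA genes. For the pooled list, also of 30000 regions, the shares were 54.0% of members and 16.7% of 100 bp genome windows. The IDR step compares the replicates, but at the members its peaks were also those of highest pooled signal. Pooled signals began at 38.4 in members with an IDR peak and ended at 37.7 in those without. Presence in both replicate lists is thus not separate from how the peaks were chosen, and single peaks can be weak in 1 replicate. Among the 87 with an IDR peak, 86 had a region in both lists, with a median rank of 314 in replicate 1 and 292.5 in replicate 2. The exception was C24A1.8, which had none in replicate 1, a signal of 8.13 in replicate 2, and its summit 334 bp past its 5′ end. Across the 142 members the log2 signals had a Pearson correlation of 0.815 and a Spearman correlation of 0.822 between replicates. Across the 86 they were 0.50 and 0.565. These are descriptions across genes that share the same libraries. K02A11.12 differed most in rank among members with a peak, with a signal of 42.4 at place 443 in replicate 1 and 7.02 at place 10621 in replicate 2. F30H5.4, which has A and B box letters, had a signal of 62.2 at place 134 in replicate 1 and no region in replicate 2, in the pooled list or in the IDR list. Of the 32-base words within 250 bp of F30H5.4, 11.5% occur more than once in the genome. Their part in this difference was not tested.

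**Figure D4:**
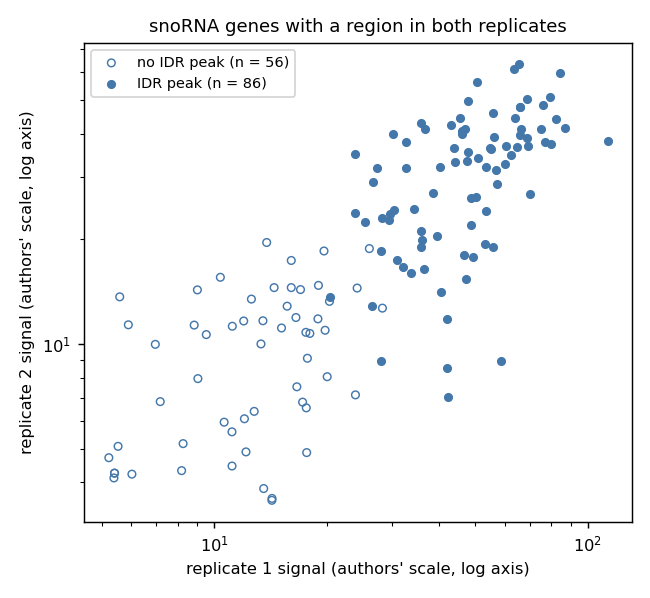
Signal in replicate 2 (y axis) against replicate 1 (x axis), both log axes on the authors' scales, for the 142 snoRNA genes with a region in both lists; filled points have an IDR peak. Filled points stand at the upper right, and a few lie low in replicate 2, the lowest at 7.02.

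The box letters were then counted around all members. GTTCNANNC on the strand of the gene, within 60 bases before to 10 bases into it, was found in 25 of the 87 genes with a peak (28.7%, 19.5 to 39.4%) and in 11 of the 259 without (4.25%, 2.14 to 7.47%). On the other strand it was in 0 of 87 (upper bound 4.15%) and 1 of 259. The same window held it in 0.961% of protein-coding genes and 8.53% of snRNA genes, and 1.21% of genome windows of that length had it on the forward strand. TGGNNNNNTGG in the 150 bases before the gene was in 23 of 87 (26.4%) and 21 of 259 (8.11%), with 1.16% of coding genes and 2.62% of genome windows as a reference. On the opposite strand it was in 1 and 12. Both sets of letters were thus met more often on the strand of the snoRNA gene than on the other.

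Read the other way, 25 of the 36 snoRNA genes with GTTCNANNC upstream had a peak (69.4%, 51.9 to 83.7%), and 62 of the 310 without it (20%, 15.7 to 24.9%). The counts with the letters were 10 of 15 in same-strand introns, 3 of 5 in opposite-strand introns and 10 of 13 between genes. Without them they were 22 of 135, 8 of 23 and 29 of 111. In each of these classes the share was higher with the letters. An A box followed by a B box was found in 18 genes, and 14 of them had a peak (77.8%, 52.4 to 93.6%). From the start of one to the start of the other there were 43 to 45 bases in 13 of these 14, 86 in F55A11.10, and 44 in all 4 without a peak. Those 4 were F25H5.9, F30H5.4, H04D03.5 and Y59E1B.14. Pooled regions of signal 26.8 and 31.8 were near F25H5.9 and H04D03.5, and Y59E1B.14, on chromosome X, had none in either replicate. With neither set of letters, 53 of 284 genes still had a peak (18.7%, 14.3 to 23.7%).

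B box letters began at a median of −14 bp in genes with a peak (n = 25, quartiles −16 and −11, range −44 to −5) and of −12 bp in those without (n = 11, range −46 to −5). A box letters of the pairs began at a median of −56.5 bp (n = 14, range −100 to −50). The summit was at a median of 12 bp to the 5′ side of the B box start. Members with a peak and GTTCNANNC had a median signal of 99.3 (n = 25), those with a peak and without it 68.0 (n = 62). For comparison, 587 of 612 tRNA genes (95.9%) hold GTTCNANNC inside the gene on their own strand.

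Across the nuclear genome, A and B box letters spaced by 43 to 45 bases occurred 788 times. This spacing was chosen after that at snoRNA genes was seen, so the snoRNA share below is not separate from the count of pairs above. Inside tRNA genes 114 of 214 such pairs had a summit within 250 bp (53.3%, 46.3 to 60.1%). In snoRNA genes or the 150 bases before them the count was 13 of 17 (76.5%, 50.1 to 93.2%). Elsewhere it was 14 of 557 (2.51%, 1.38 to 4.18%). Pairs outside annotated tRNA and snoRNA genes thus seldom had a summit.

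In windows that reach 100 bp to each side of the summits, read on both strands, GTTCNANNC was in 26 of the 86 peaks at snoRNA genes (30.2%, 20.8 to 41.1%). It was in 244 of 263 peaks at tRNA genes (92.8%), in 73 of 1335 at neither (5.47%) and in 7.16% of genome windows. CCAAT was in 25 of 86 (29.1%), against 29.5% of all nuclear peaks and 36.7% of genome windows. CACGTG, an E-box, was in 2 of 86 (2.33%), against 4.51 and 3.33%. For these last 2 motifs the intervals of the snoRNA peaks hold the share of all peaks.

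Host genes were examined next. The 150 members in same-strand introns lie in 130 host genes, of which 35 had a summit within 500 bp of the start (26.9%, 19.5 to 35.4%). The background was 6.72% over all protein-coding genes, and 1286 of 19156 other intron-containing coding genes had one (6.71%). All 13 hosts that Ensembl names rpl- or rps-, for ribosomal proteins of the large or small subunit, had a start peak (75.3 to 100%), led by rpl-15 with a signal of 238 and rps-12 with 148. Of the other 117 hosts 22 had one (18.8%, 12.2 to 27.1%). Among those 22 are Y37E3.8 and ubl-1, which RefSeq names rpl-27A and rps-27A, and with these the counts were 15 of 15 and 20 of 115 (17.4%, 11.0 to 25.6%). Highest among them were cdc-48.1, the gene of an AAA ATPase, with 281, eef-1G, a subunit of elongation factor 1, with 145, iff-2, a counterpart of initiation factor 5A, with 115, and utp-20 with 112.

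Few snoRNA genes had a peak in hosts that had one at their start. In hosts with a start peak, 4 of 49 snoRNA genes had a peak (8.16%, 2.27 to 19.6%), against 27.7% in hosts without one (28 with a peak and 73 with none, 19.3 to 37.5%). The 2 intervals overlap slightly, between 19.3 and 19.6%. More than 1000 bp from the host start the counts were 1 of 18 and 27 of 79 (34.2%). The 4 were F54E7.10 in rps-12, whose summit is that of the start peak, so that 3 of 49 had a separate one (6.12%, 1.28 to 16.9%), C16A3.11 in rps-13, M106.6 in mix-1, a gene of chromosome condensation, and D1046.6 in cfim-2, a cleavage and polyadenylation factor gene. In M106.6 the summit was 50 bp upstream and in D1046.6 it was 12 bp inside. In C16A3.11 it was 274 bp past the 5′ end, beyond the gene. The 13 hosts named rpl- or rps- held 19 snoRNA genes, and 2 of them had a peak (10.5%, 1.30 to 33.1%). With Y37E3.8 and ubl-1 the count was 2 of 23 (8.70%, 1.07 to 28.0%).

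In the hosts with 3 or more snoRNA genes, no snoRNA gene had a peak. The largest number was 4, in nol-56, which encodes a core protein of C/D snoRNPs, and neither its start nor its snoRNA genes K07C5.10, K07C5.11, K07C5.12 and K07C5.18 had a peak. The 3 snoRNA genes of rpl-6 (R151.11, R151.12 and R151.13) had none, with a host start peak of 73.0. The 3 of top-2, the gene of a DNA topoisomerase (K12D12.6, K12D12.7 and K12D12.8), had none, with a start peak of 88.8. Neither did the pairs in cdc-48.1 and eef-1G, or the pair in rpl-15, of which K11H12.12 is printed above.

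**Figure D5:**
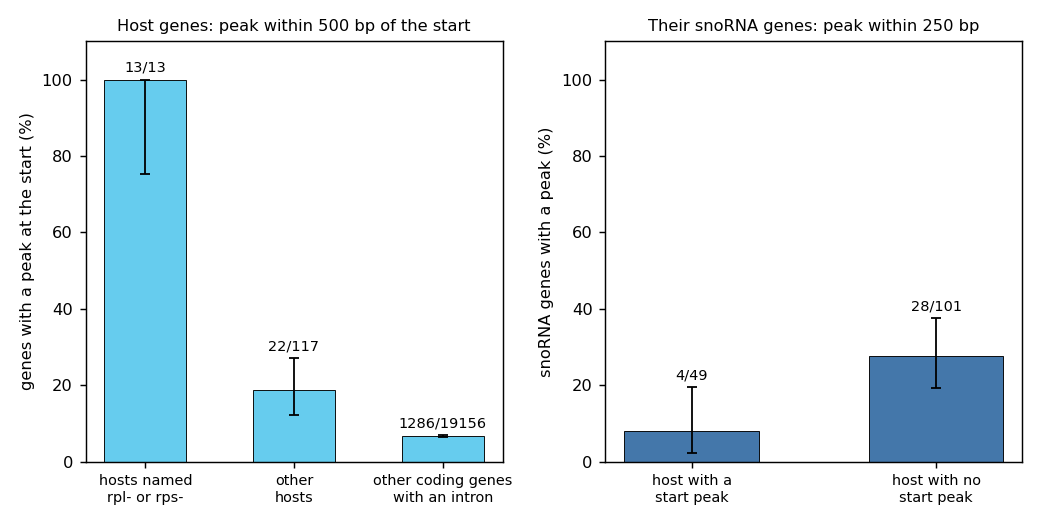
Left, percent of genes with an IDR summit within 500 bp of the start (y axis) for hosts named rpl- or rps- in Ensembl, other hosts and other intron-containing coding genes. Right, percent of snoRNA genes in same-strand introns with a summit within 250 bp (y axis), by whether the host has a start peak; bars carry 95% exact intervals and counts. All 13 hosts so named have a start peak, and 4 of 49 snoRNA genes in hosts with a start peak have a summit in reach (8.16%, 1 of them that of the host start), against 27.7% in hosts without one.

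Among the introns of the host genes, those that hold a snoRNA had a summit more often than the others. A summit was inside 35 of 146 such introns (24.0%, 17.3 to 31.7%) and inside 4 of the 1004 other introns of the same genes (0.398%, 0.109 to 1.02%). The introns with a snoRNA came from any coding transcript, the others only from the transcript with the longest coding sequence. The introns with a snoRNA are longer, with a median of 374.5 bp against 114.5 bp, so the counts were also taken per length. There were 37 summits in 252.5 kb (0.147 per kb) and 6 in 537.7 kb (0.0112 per kb). Among introns of 200 to 1000 bp the shares were 23 of 77 (29.9%) and 1 of 292 (0.342%), and among longer ones 12 of 49 (24.5%) and 2 of 136 (1.47%). This rule takes a summit anywhere in the intron. In the longer introns that hold F16A11.12, K10G6.10, C04A2.16, K02F3.15 and B0524.10, no summit was within 250 bp of the snoRNA gene. Below 200 bp the counts were 0 of 20 (upper bound 16.8%) and 1 of 576 (0.174%). Intron length moves with the presence of a snoRNA, and its part in the counts was not tested beyond these classes. Members with a peak were also farther from the host start, at a median of 3113.5 bp against 1396.5 bp, in introns of a median 337.5 bp against 407 bp.

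Nearness to other annotated features was checked. More than 1000 bp from any coding start, 22 of 83 same-strand members had a peak (26.5%), 6 of 17 opposite-strand members (35.3%) and 18 of 74 between genes (24.3%). Within 500 bp of a coding start the count over all members was 22 of 76 (28.9%), but the location classes differed. Leaving these members out raised the share in same-strand introns from 21.3 to 25.2% (28 of 111). Between genes it lowered the share from 31.5 to 24.5% (24 of 98). In opposite-strand introns the share was 39.3% with them and 40.9% (9 of 22) without. Only 2 members were within 500 bp of a tRNA gene, and 1 of them, C16D9.10, had a peak, with a signal of 83.8. Repeated sequence was also counted. Of the members with no repeated 32-base word in the gene and 250 bp around it, 67 of 262 had a peak (25.6%), against 20 of 84 with some (23.8%). Most members with a peak, 67 of 87, thus had no repeated word in reach.

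The genes of the proteins that act with snoRNAs were taken as a list. Of its 10 names 7 had a summit within 500 bp of the start. One of the other 3, gar-1, encodes a receptor of the G-protein-coupled family in this species and not the snoRNP protein, which leaves 7 of 9 (77.8%, 40.0 to 97.2%), where the background over protein-coding genes is 6.72%. The worm gene that RefSeq names as H/ACA subunit 1, garr-1, was looked up afterwards and had none. With garr-1 in place of gar-1 the count was 7 of 10 (70%, 34.8 to 93.3%). For H/ACA snoRNPs, Y48A6B.3 (subunit 2) had a start signal of 102 and dkc-1, the dyskerin gene, 55.8, while nola-3 (subunit 3) had no peak. For C/D snoRNPs, fib-1 (fibrillarin) had 83.7, snu-13 70.5 and nol-58 57.2, while nol-56 had no peak. The assembly factors ruvb-2 and ruvb-1 had 64.9 and 47.2. All 7 summits were upstream of the start, by 82 to 302 bp.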

How the data were processed

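The 2 ChIP-seq replicates were analysed as lists of regions. For each replicate and for pooled reads the authors deposited 30000 regions as input for the IDR step. They also deposited the 1707 regions of the list thresholded by that step. The values used are the authors' signal per region, on a scale of each list's own, with the deposited summit offset. Peaks were called against a control, per the deposited readme, whose kind is unclear. The sources used here do not give the aligner, caller, IDR threshold or versions, and depth is unknown. The ce10 lists, alignments and signal tracks were not used.

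Genes came from Ensembl release 115 and sequence from RefSeq, both WBcel235, which is ce11. Counting was done in Python 3.11.15 with numpy 2.4.6, pandas 2.3.3 and scipy 1.17.1, and tested on simulated summits. A same-strand intron had priority over other locations. Intervals are 95% exact (Clopper-Pearson), assume independent genes and cover only counting error. Members and lists were chosen with earlier results of these data known. The upstream box windows, their spacing, the length classes, the 1000 bp limits, the 32-base words, the RefSeq names of ribosomal protein hosts and garr-1 were chosen after seeing the data. Named are the 8 members of highest signal in each of 3 locations, those nearest the threshold, their hosts, hosts with 3 or more members and the snoRNP genes with a peak; further genes were named after their values were seen. Alternatives were other reaches, thresholds, lists, windows and exclusions, and either replicate alone.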

Additional observations from a re-analysis of the deposited data

How the results depend on the processing

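Of 90 alternative values, 17 were counted as moved and 73 as unmoved. For shares, unmoved means inside the exact interval of the reported share, which is wide for small classes. Unmoved values were thus not always close. Between genes the share fell from 31.5 to 24.5% without members within 500 bp of a coding start, and counted as unmoved. So did the share with GTTCNANNC upstream, which went from 69.4 to 57.9% with the letters GTTCNA. Requiring the summit inside the snoRNA gene lowered the share with a peak from 25.1 to 6.36% over all members, and gave 8% in same-strand introns, 7.14% in opposite-strand introns and 5.65% between genes, since most summits lie upstream. Counting every pooled region raised the same 4 shares to 54.0, 52, 71.4 and 58.1%. Peaks above the median signal gave 20.2% over all members, 23.4% between genes, 17.1% of introns that hold a snoRNA and 14.8% of members without GTTCNANNC. Host genes with a start peak fell from 26.9 to 15.4% with a reach of 250 bp, where the background over coding genes was not counted. At the main reach of 500 bp they fell to 18.8% without hosts named rpl- or rps-, and to 17.4% with the 2 further RefSeq names also left out. CCAAT fell to 15.1% in windows that reach 50 bp to each side of the summit, where all nuclear peaks had 15.8%. With the strongest regions of 1 replicate alone, the median summit position was −22 bp without replicate 2 and −9 bp without replicate 1, the share of all members 25.1 and 22.8%, and the share of other host introns 0.697% both times. Location classes kept overlapping intervals, so their order is not resolved. The kind of control is unknown, and whole animals mix all tissues. No paired analysis was possible because there is 1 group.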
